A study of Mus musculus with 20 samples.

Results

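The hair keratins Krt85, krt86 and Krt2-25 (now named Krt87) are 3 of the 27962 gene names on the arrays, and each is represented by a single probe, taken by its gene name in the scanner files. The 3 were chosen from the measured values themselves, because they were among the largest increases over vehicle at 2 hr (all 3) and, for Krt85, in E2-treated uteri at 24 hr. Those comparisons are therefore given as a description without a test, and only other comparisons were tested. The tests against vehicle at 24 hr reuse the vehicle arrays whose low signals entered the choice, so they are not independent of it and lean towards a rise, whereas the tests of HPTE against BPA use no vehicle array. All mice were ovariectomized adult C57bl6/J females of at least 10 weeks that rested 10 to 14 days before 1 subcutaneous injection in 100 µl of sesame oil. Uteri were taken at 2 hr or 24 hr after 250 ng of estradiol (E2), 750 µg of bisphenol A (BPA) or 750 µg of HPTE, and each array held the RNA of 1 uterus. The vehicle group (sesame oil alone) was collected at 24 hr, so the 2-hr groups differ from it in both time and compound, and these cannot be told apart. Vehicle had 3 arrays, E2 at 24 hr had 2 and each of the other 5 groups had 3, for 20 arrays on 6 slides.

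Keratins are the intermediate filament proteins of epithelial cells, and each filament needs a type I and a type II partner. The hair (hard) keratins are a subset that builds the cortex and cuticle of the hair shaft and the nail, where keratin-associated proteins crosslink the filaments. All 3 genes here are type II hair keratins: Krt85 is switched on early in the hair matrix, Krt86 belongs to the hair cortex, and Krt87 is a close relative of Krt86. A resting uterus of an ovariectomized mouse is lined by a simple epithelium, for which other keratins (Krt8, Krt18, Krt7 and Krt19) are typical.

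The probes are shown because they decide which of the genes each signal can be assigned to. Capitals mark the run of 20 bases that krt86 and Krt2-25 share, the last 20 bases of the first probe and the first 20 of the second.
krt86: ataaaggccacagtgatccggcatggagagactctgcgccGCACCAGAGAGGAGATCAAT
Krt2-25: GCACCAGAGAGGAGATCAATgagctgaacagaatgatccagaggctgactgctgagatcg
The first 30 of the 60 bases of the third probe follow.
Krt85: atggaaaatgtgtgcttgcttccagaatct

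All 3 probes lie in the type II keratin cluster of chromosome 15 on the mm7 build, as the scanner files give it: Krt2-25 at chr15:101419766-101419825, krt86 at chr15:101463017-101463076 and Krt85 at chr15:101502722-101502781. No exon or UTR annotation of that build was used here. The files place krt86 and Krt2-25 at different loci, yet the 2 probes share sequence, and 3 of the 4 transcript records listed for each are listed for both. Signals of krt86 and Krt2-25 are therefore not independent, and RNA of either gene may contribute to both. Krt85 shares no transcript record with them and no run longer than 7 bases. Apart from krt86 and Krt2-25 with each other, none of the 3 shares a run of 18 bases with another probe on the array. That search covered probes and not transcripts. The type II hair keratins Krt81 and Krt83 had no probe, so a part of their RNA in the 3 signals was not tested.

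Between 72.7% and 81.4% of the 41174 probes were well above background on each array, the flag by which the scanner software marks a spot brighter than its surroundings. Of these probes, 32456 were bright enough to test. Intensities below are processed intensities in arbitrary units, and changes are log2 differences after each array was centred on its 75th percentile (1320 to 2046). All 8 uterine markers, which include Hoxa10, Esr1 and Pgr, and all 4 smooth muscle markers were well above background on all 20 arrays. Their levels moved with the groups: 3, 6 and 5 of the 8 uterine markers fell and 1 rose with E2, BPA and HPTE at 2 hr. In these contrasts 17.0%, 30.2% and 28.2% of all probes tested were called lower and 11.1%, 19.3% and 19.9% higher. With E2 at 24 hr 4 fell and 1 rose, where 37.6% of all probes were called lower and 26.3% higher. Of the 4 smooth muscle markers, 3 rose with E2 and all 4 with HPTE at 24 hr, where 26.3% and 14.9% of all probes were called higher. The part of these shifts in the values below was not tested. The vehicle arrays also carried sperm cell transcripts, with a summed intensity of 7 markers of 53075 to 168160 against 627 to 22420 on treated arrays, and 4 E2 arrays carried pancreatic transcripts, with a sum of 9 markers of 7226 to 2801540 against 553 to 1177 on the other 16. The sperm cell transcripts were highest in the vehicle group to which all others are compared, and their part in the differences was not tested.

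No vehicle array showed Krt85 clearly over background, and its intensity there was 2.33, 9.11 and 7.67. At 2 hr it was 7397, 9002 and 16090 with E2, 17063, 15948 and 3021 with BPA, and 11878, 10627 and 14138 with HPTE. The vehicle and 2-hr arrays did not overlap, and the lowest 2-hr array was BPA replicate 3. With the vehicle arrays set to their detection limits (the dimmest signal flagged as well above background, or the Krt85 signal where higher), Krt85 was at least 855-fold higher with E2, 640-fold with BPA and 783-fold with HPTE, as a description of the values that chose it.

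krt86, the cortex keratin, was well above background on all 20 arrays, including vehicle, where its intensity was 21.4, 36.6 and 51.7. At 2 hr it was 5360, 5446 and 10099 with E2, 5899, 6806 and 2719 with BPA, and 6056, 4949 and 6744 with HPTE. No 2-hr array lay within the vehicle range. The mean was 227-fold above vehicle with E2, 133-fold with BPA and 155-fold with HPTE.

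Krt2-25 stood at 31.1, 28.1 and 31.1 on the vehicle arrays and was well above background on all of them. At 2 hr it was 5491, 6131 and 9853 with E2, 5874, 6653 and 2825 with BPA, and 5843, 4939 and 6626 with HPTE. The means were 270-fold, 153-fold and 173-fold above vehicle, in the same order, again with no overlap. The single-array pattern was shared by all 3 probes: E2 replicate 3 was the highest E2 array and BPA replicate 3 the lowest BPA array for each. BPA replicate 3 lay below its own group mean by 1.63 (Krt85), 0.81 (krt86) and 0.76 (Krt2-25) on the log2 scale. At 2 hr the pancreatic sums were 559, 2801540 and 203940 on E2 replicates 1, 2 and 3 and 553 to 1003 on the 6 BPA and HPTE arrays, against 754 to 921 on vehicle arrays. The part of pancreatic transcripts in the 2-hr values was not tested. Of the 9 pancreatic markers, 4 were well above background on all 20 arrays. In these whole-tissue samples, more RNA per cell and more cells of a type cannot be told apart.

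**Figure D1:**
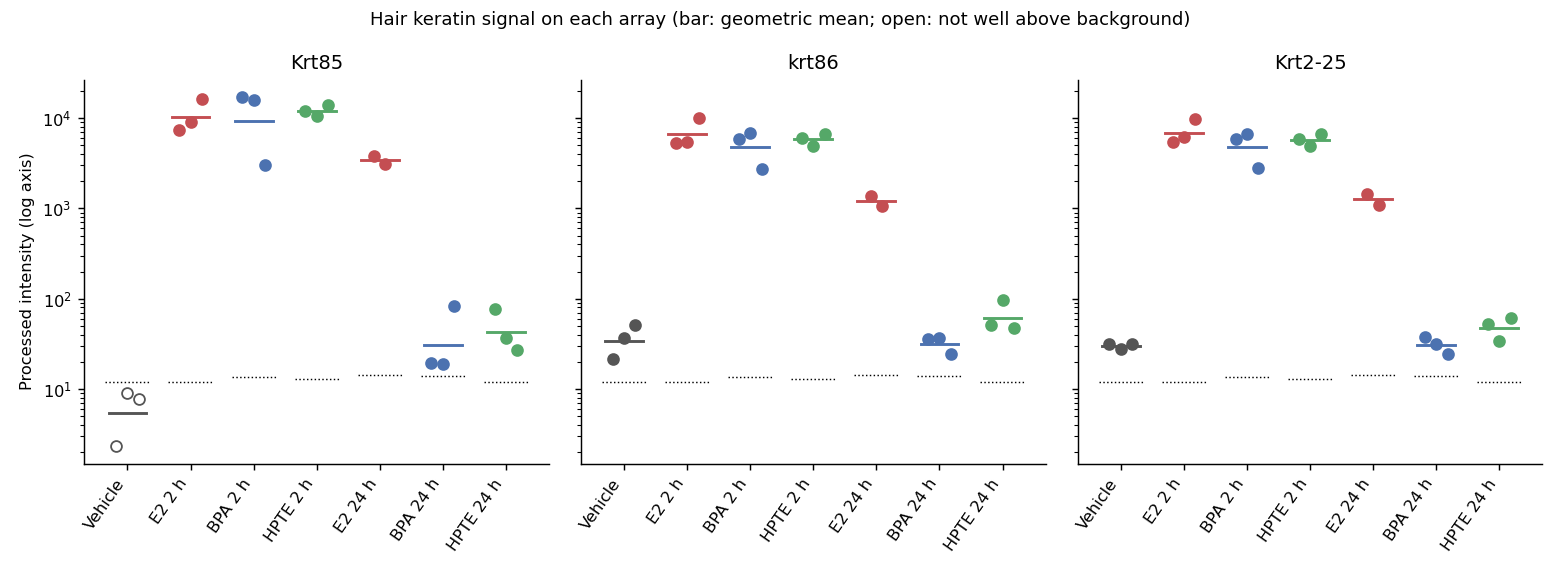
Processed intensity (log axis) of Krt85, krt86 and Krt2-25 on each of the 20 arrays by group. Points are arrays, bars the geometric mean of a group, open points signals not well above background, and dotted lines the group's median of the lowest signal well above background; the 9 arrays at 2 hr and both E2 arrays at 24 hr stand far above vehicle, whereas BPA and HPTE arrays at 24 hr reach 95.9 at most.

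At 24 hr the E2 arrays read 1058 to 3855 over the 3 probes. The BPA and HPTE arrays read 18.8 to 95.9, which for Krt85 was above all vehicle arrays. For krt86, E2 gave 1361 and 1058 at 24 hr, a rise of 5.10 over vehicle (SE 0.42, n = 2 against 3, limma adjusted p = 8.53e-08), or 34.3-fold. Krt2-25 rose by 5.36 (SE 0.31, adjusted p = 3.70e-09), or 41.2-fold, from arrays at 1450 and 1097. Both arrays exceeded every vehicle array for both probes. Both testable members were thus called higher, in a comparison in which 26.3% of all probes tested were called higher and 37.6% lower. Krt85 was 3855 and 3081 on these arrays, at least 241-fold above vehicle, which is given without a test because this contrast chose it. The 2 E2 arrays at 24 hr had pancreatic sums of 7226 and 13399, and the part of these transcripts in the 24-hr values was not tested.

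BPA at 24 hr left krt86 at 36.0, 36.4 and 24.5 and Krt2-25 at 37.8, 31.7 and 24.5. Both sets of arrays overlapped vehicle. The difference was 0.00 for krt86 (95% interval -0.80 to 0.80, adjusted p = 0.999) and 0.15 for Krt2-25 (-0.44 to 0.74, adjusted p = 0.778). Krt85 was well above background on all 3 BPA arrays at 24 hr, at 19.3, 18.8 and 82.5. It was called higher at a fitted difference of 2.62 (SE 0.69, limma adjusted p = 0.0218), in a test that uses again the vehicle values by which Krt85 was chosen. With the vehicle arrays at their detection limits the rise was at least 2.40-fold, a bound that was not itself tested. Thus 1 of 3 probes was called higher, where 5.09% of all probes were called higher and 8.03% lower. The Krt85 call rested on few arrays: without BPA 24 h replicate 3 the bound was 0.56 on the log2 scale (adjusted p = 0.116), and without vehicle replicate 1 it was 1.14 (adjusted p = 0.121).

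HPTE at 24 hr gave 77.3, 36.6 and 27.3 for Krt85, above every vehicle array. The fitted difference was 3.08 (SE 0.69, adjusted p = 0.00345, with the same reuse of the vehicle values), and the untested bound was at least 3.29-fold. Krt2-25 stood at 52.0, 34.1 and 61.4, also above every vehicle array, and rose by 0.78 (SE 0.28, adjusted p = 0.0407), or 1.72-fold. These separations from vehicle are descriptive, since their share over all probes was not counted. krt86 was 50.7, 95.9 and 47.5, which overlapped the vehicle range, and its difference of 0.95 did not pass the threshold (95% interval 0.15 to 1.75, adjusted p = 0.0626). Hence 2 of 3 probes were called higher, where 14.9% of all probes were called higher and 19.1% lower. The Krt2-25 call was lost without any of 5 single arrays: vehicle replicates 1, 2 and 3 (0.83, 0.71 and 0.80) and HPTE 24 h replicates 1 and 3 (0.73 and 0.62).

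On the log2 scale the mean signal at 24 hr was below that at 2 hr by 1.83 with E2, 8.06 with BPA and 7.90 with HPTE for Krt85. For krt86 it was lower by 2.73, 7.06 and 6.32, and for Krt2-25 by 2.71, 7.11 and 6.66. These declines are descriptive. After centring, the order of group means was the same for all 3 probes at the top, with E2 at 2 hr first, HPTE at 2 hr next, then BPA at 2 hr and E2 at 24 hr. Before centring, the median (not the mean) at 2 hr was highest with BPA for Krt85 (15948), HPTE for krt86 (6056) and E2 for Krt2-25 (6131). The order of the 2-hr groups is thus not firm, and the part of centring was not separated from that of median against mean. After centring, the 3 groups at 2 hr overlapped for Krt85, whereas every E2 array at 2 hr lay above every BPA and HPTE array for krt86 and Krt2-25, at an E2 dose that differs. Before centring, E2 arrays at 2 hr overlapped those of BPA and HPTE for krt86 and Krt2-25 too. Both E2 arrays at 24 hr lay below every 2-hr array for these 2 probes. For Krt85, the lowest BPA array at 2 hr (3021) fell below both of them.

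HPTE and BPA were given at the same dose of 750 µg and can be compared directly. Both carry a pair of hydroxyphenyl rings, joined in HPTE by a carbon that bears a trichloromethyl group and in BPA by a carbon that bears methyl groups. At 2 hr the difference between HPTE and BPA was 0.29 for Krt85 (95% interval -1.19 to 1.77, adjusted p = 0.892), 0.21 for krt86 (-0.59 to 1.02, adjusted p = 0.841) and 0.18 for Krt2-25 (-0.41 to 0.77, adjusted p = 0.811). By limma 0 of 3 probes were called, with 0 at an unadjusted p under 0.05, and 0.438% of all probes were called in either direction. Without BPA 2 h replicate 3 all 3 differences changed sign, to -0.52, -0.19 and -0.20. The interval for Krt85 reaches 1.77 on the log2 scale, so a like response was not shown.

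At 24 hr the same comparison gave 0.46 for Krt85 (-1.02 to 1.94, adjusted p = 0.773), 0.95 for krt86 (0.15 to 1.75, adjusted p = 0.162) and 0.63 for Krt2-25 (0.04 to 1.22, adjusted p = 0.207). For krt86 all HPTE arrays lay above all BPA arrays, and for the other probes they overlapped. The share of all probes that separate in this way was not counted, so this is a description. By limma 0 of 3 probes were called, where 4.08% of all probes were called in either direction, both by adjusted p. An unadjusted p under 0.05 was found for 2 of 3, krt86 and Krt2-25, whose signals are not independent. The share of all probes with such an unadjusted p was not counted, so this is a description too. E2 was given at 250 ng, another dose, so its values stand beside those of HPTE and BPA without a comparison.

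**Figure D2:**
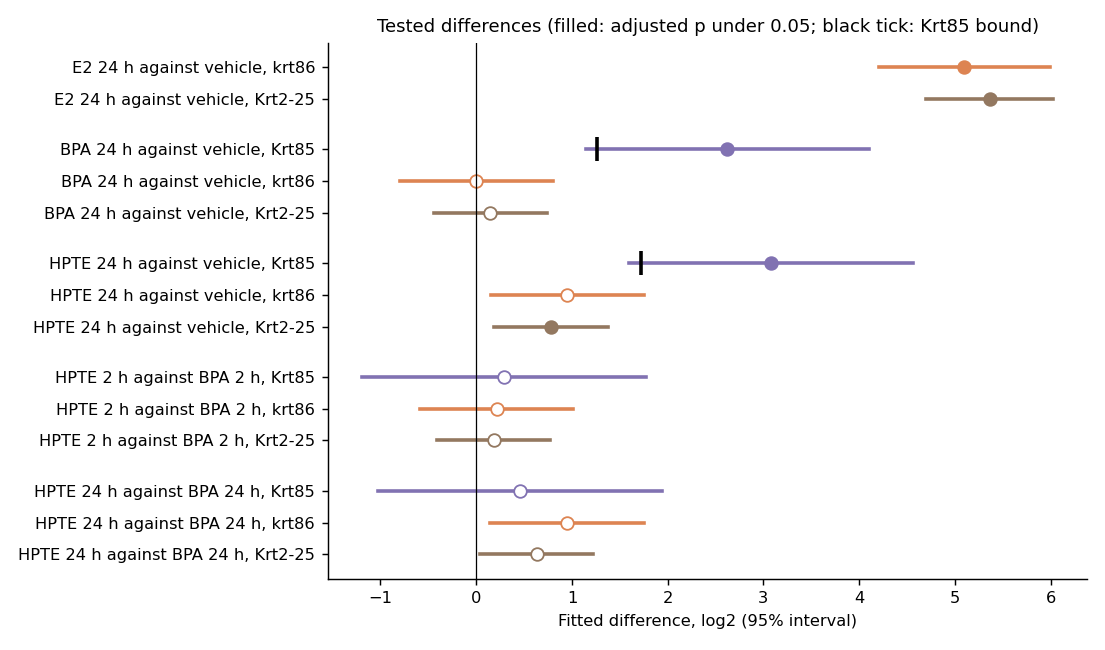
Fitted log2 differences with 95% intervals for the comparisons other than those that chose the probes. Filled points passed an adjusted p of 0.05, and black ticks give the lower bound for Krt85 against vehicle; the E2 values at 24 hr stand at 5.10 and 5.36, and all 6 intervals of HPTE against BPA belong to open points.

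Hair keratins work in pairs, and signal of the type I partners was low. Of the 9 type I hair keratins, 7 had a probe and 2 (Krt35 and Krt36) were bright enough to test. Krt31 was well above background on 0 of 20 arrays, Krt32 on 4, Krt33a on 2, and Krt33b and Krt34 on 7 each, with no intensity among these 5 above 31.8. At 2 hr Krt35 and Krt36 differed from vehicle by 0.31 and 0.03 with E2, -0.31 and -0.74 with BPA, and -0.23 and -0.41 with HPTE, none past the threshold. Thus 0 of 2 were called by limma at 2 hr in each contrast, where 11.1% (E2), 19.3% (BPA) and 19.9% (HPTE) of all probes were called higher and 17.0%, 30.2% and 28.2% lower. At 24 hr with E2, Krt35 was not above background on either array and was at least 1.22-fold lower (adjusted p = 0.00223). The call was lost with normexp and quantile normalization (-0.05, adjusted p = 0.646) and without E2 24 h replicate 2 (fitted difference -0.74, adjusted p = 0.0855), where the lone E2 array was assumed to vary like the other groups, as in each such case below, while Krt36 differed by 0.47 (adjusted p = 0.533).

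Among the other type II hair keratins, 2 of 4 had a probe. Krt82 was well above background on no array. Krt84, whose probe lies 8.70 kb from that of Krt85, stood at 37.7, 71.0 and 31.9 on vehicle arrays and differed by 0.24 (E2), 0.10 (BPA) and 0.44 (HPTE) at 2 hr, with adjusted p from 0.673 to 0.926. At 24 hr with E2 it was 356 and 226 and rose by 2.66 (SE 0.84, adjusted p = 0.0121), a call lost without E2 24 h replicate 2 (2.56, adjusted p = 0.0630).

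The keratin-associated proteins, which embed hair filaments, had 41 of 56 genes on the array and 13 bright enough to test, and 17 of the 41 were well above background on no array. At 2 hr 1 of 13 rose in each contrast (Krtap6-3, by 0.48, 0.38 and 0.53 with E2, BPA and HPTE). Krtap17-1 fell with BPA (-1.79) and HPTE (-1.47), and Krtap4-6 fell with BPA (-0.43). Over all probes 11.1%, 19.3% and 19.9% were called higher and 17.0%, 30.2% and 28.2% lower with E2, BPA and HPTE. Without scaling the Krtap6-3 call with E2 was lost (0.25), and with only the compared groups in the fit those of Krtap6-3, Krtap17-1 and Krtap4-6 with BPA were. Single arrays decided 3 of these calls: Krtap6-3 with BPA (0.29 to 0.34 without vehicle replicate 1 or 3 or BPA 2 h replicate 2), Krtap4-6 with BPA (-0.40 without vehicle replicate 2 and -0.23 without BPA 2 h replicate 1) and Krtap17-1 with HPTE (-1.50 to -1.35 without vehicle replicate 1 or 2 or HPTE 2 h replicate 1 or 2). The median change was 0.14, -0.09 and -0.07, against -0.06, -0.10 and -0.09 over all probes. At 24 hr with E2, Krtap19-1 (0.33) and Krtap5-4 (0.46) rose and Krtap17-1 fell (-2.97). By limma these were 2 of 13 higher and 1 lower, where 26.3% of all probes were called higher and 37.6% lower. The Krtap19-1 call was lost without E2 24 h replicate 3 (0.22) and that of Krtap5-4 without vehicle replicate 1 or 2 or either E2 array (0.37 to 0.56). Krtap19-1 was also lost with only the compared groups, and Krtap5-4 without scaling or without the filter on dim probes. With HPTE at 24 hr Krtap19-1 and Krtap4-6 rose, 2 of 13, where 14.9% of all probes were called higher. Both of these calls were lost without scaling (0.12 and 0.35) and with slide as a block (0.29 and 0.42).

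Other hair shaft proteins divided. Dsg4, a desmosomal cadherin of the hair, was above background on no array, and S100a3, a cuticle protein, and Tgm3, a crosslinking enzyme, passed the threshold in no contrast with vehicle. Padi3, which converts arginine to citrulline in hair proteins, rose with BPA (2.34, SE 0.27, adjusted p = 7.09e-06) and HPTE (2.09, adjusted p = 1.50e-05) at 2 hr and with E2 at 24 hr (2.10, adjusted p = 2.14e-05). Its arrays read 30.6, 34.9 and 22.9 for vehicle, 143, 180 and 140 for BPA and 135, 140 and 136 for HPTE at 2 hr. With E2 at 2 hr it read 58.7, 27.0 and 58.2 and rose by 0.87 (adjusted p = 0.0250), a call lost without vehicle replicate 3 (0.69), E2 2 h replicate 1 (0.64) or replicate 3 (0.80), without scaling (0.64), with slide as a block (0.79) and with only the compared groups. It did not pass the threshold with BPA or HPTE at 24 hr (-0.14 and -0.22).

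Of 10 regulators of hair formation, 6 could be tested. Hoxc13, a factor that drives hair keratin genes, was well above background on 1 of 20 arrays, and Dlx3 and Shh on none. Foxn1, a second activator of hair keratins, was dim on vehicle arrays (above background on 1 of 3) and rose with HPTE at 2 hr (1.85, SE 0.44, adjusted p = 0.00268) to 24.4, 29.7 and 35.6. Foxn1 was bright enough to test only through these HPTE arrays, so this test leans towards a rise. With BPA it rose by 1.20 (adjusted p = 0.0340), a call that any of 4 arrays decided (1.02 and 0.76 with vehicle replicate 2 or 3 left out, 1.08 and 1.07 with BPA replicate 1 or 2 left out) and that was also lost with slide as a block (1.05) or only the compared groups, and with E2 it was above background on 0 of 3 arrays at 2 hr. Edar, the ectodysplasin receptor, fell with all 3 compounds at 2 hr (-1.27, -2.99 and -2.87) and with E2 at 24 hr (-3.46). Vdr, the vitamin D receptor, fell in all 3 contrasts at 2 hr (-0.59, -0.52 and -0.45, the last lost at -0.31 without scaling), as did Gata3 (-0.44, -0.44 and -0.78), whose call with E2 was lost without vehicle replicate 1 or 3 or E2 2 h replicate 2 or 3 (-0.40 to -0.37). The Gata3 calls with E2 and BPA were both lost with slide as a block (adjusted p = 0.0749 and 0.0515) and with only the compared groups (0.0795 and 0.0715), and that with BPA also without scaling (0.0719). Lef1, the Wnt effector, fell with BPA (-0.63) and with HPTE (-0.50, lost at -0.42 without vehicle replicate 1 and at -0.36 without HPTE 2 h replicate 3 or without scaling). Msx2 rose with E2 (0.84, adjusted p = 0.0108), a call lost without E2 2 h replicate 3 (0.69), with slide as a block (0.75, adjusted p = 0.0694) and without scaling (0.61, adjusted p = 0.0887). In all, 1 rose and 3 fell with E2 at 2 hr, and 1 rose and 4 fell with BPA and with HPTE, of 6. The gene that rose with HPTE was Foxn1, with the limit given above. The shares over all probes at 2 hr were 11.1% higher and 17.0% lower with E2, 19.3% and 30.2% with BPA, and 19.9% and 28.2% with HPTE. The fall with E2 at 24 hr was not particular to Edar, since Vdr, Gata3 and Lef1 were called lower as well. There 0 of 6 rose and 4 fell by limma, where 26.3% of all probes were called higher and 37.6% lower. At 24 hr Gata3 and Lef1 also fell with HPTE and Lef1 with BPA, where 19.1% and 8.03% of all probes were called lower. These HPTE and BPA calls were lost with slide as a block.

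Of the genes of the inner root sheath and companion layer, which surround the shaft, 0 of 4 tested were called higher by limma at 2 hr, where 11.1% to 19.9% of all probes were, so the count does not set the list apart. Tchh, the trichohyalin gene, fell in all 3 contrasts (-1.12, -1.37 and -1.65) and with E2 at 24 hr (-1.42). It was 1 of 4 each time, where 17.0%, 30.2% and 28.2% of all probes were called lower at 2 hr and 37.6% with E2 at 24 hr. At 24 hr Krt75 rose with E2 (2.14, adjusted p = 0.00681), a call lost without E2 24 h replicate 3 (1.25), and Krt25 rose at least 2.30-fold with HPTE (adjusted p = 0.0267), a call lost without vehicle replicate 1 or 2 or HPTE 24 h replicate 1 or 2 (adjusted p from 0.0751 to 0.0938). The Krt25 call was also lost with slide as a block (adjusted p = 0.116). By limma each was 1 of 4 genes, where 26.3% (E2) and 14.9% (HPTE) of all probes were called higher. Krt25 was bright enough to test only through the HPTE arrays at 24 hr, so its test leans towards a rise.

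Keratins of stratified epithelia had 15 of 17 genes tested. By limma 3 of the 15 rose at 2 hr with E2, 3 with BPA and 4 with HPTE, the same 3 in each. Over all probes 11.1%, 19.3% and 19.9% were called higher, and the list as such was not tested. Krt4, a keratin of internal stratified epithelia, stood at 8.26, 16.2 and 19.4 on vehicle arrays, above background on 1 of them. At 2 hr it read 83.6, 106 and 147 with E2, 440, 736 and 243 with BPA and 787, 660 and 984 with HPTE. It rose by 3.22, 4.90 and 5.72 (SE 0.49, adjusted p = 0.000165, 1.90e-06 and 3.87e-07), the largest change in each 2-hr contrast among the genes tested in these lists. Krt76 rose by 1.69, 2.30 and 2.38 and Krt79 by 1.20, 2.14 and 2.82, and Krt78 rose with HPTE by at least 2.34-fold (adjusted p = 0.0192), a call lost without vehicle replicate 3 (adjusted p = 0.0573) or HPTE 2 h replicate 2 (adjusted p = 0.0530). Krt10 fell in each contrast (-0.39, -0.70 and -0.44), with the E2 call lost when only the compared groups were fitted (adjusted p = 0.0539) and the HPTE call without scaling (-0.29, adjusted p = 0.0893), and the remaining members did not pass the threshold. At 24 hr with E2 Krt4 read 19.4 and 51.9 (1.18, adjusted p = 0.0710), and with BPA and HPTE it differed by 0.20 and 0.97, neither past the threshold.

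At 24 hr with E2 the stratified keratins that passed the test were in part others. Krt6a was at least 28.1-fold and Krt6b at least 11.4-fold higher, and Krt14, the basal keratin, rose by 3.93, Krt13 by 2.16, Krt76 by 1.5 and Krt78 at least 3.19-fold, for 6 of 15, where 26.3% of all probes were called higher. Krt6a was bright enough to test only through these E2 arrays, and Krt6b and Krt78 only through these and an HPTE group in which they were also called. The tests of these genes therefore lean towards a rise, and so does the count. The E2 arrays differed widely: Krt14 read 3932 and 24094 on replicates 2 and 3 and Krt6a 89.6 and 1807. Without replicate 3, Krt13 and Krt6b were called, 2 of 15 (9 without replicate 2), while fitted differences stayed at 2.40 for Krt14 and 3.60 for Krt6a, an alternative added after the values were seen. With only the compared groups the Krt76 call was lost (adjusted p = 0.0568). krt86 and Krt2-25 showed no such gap, since each E2 array lay within 0.05 (krt86) or 0.03 (Krt2-25) of its group mean on the log2 scale. With BPA at 24 hr 0 of 15 rose by limma, where 5.09% of all probes were called higher. With HPTE Krt6b (at least 2.70-fold) and Krt79 (0.91) rose, where 14.9% were. Both calls were lost without vehicle replicate 1 or HPTE 24 h replicate 1 or 2 (adjusted p from 0.0536 to 0.203), and that of Krt6b also without vehicle replicate 2 (adjusted p = 0.103).

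All 6 simple epithelial keratins were well above background on all 20 arrays. With E2 at 2 hr 3 rose (Krt7 by 0.57, Krt19 by 0.30 and Krt23 by 1.37). With BPA 1 rose (Krt7, 0.61) and 3 fell (Krt18, -0.59, Krt19, -0.43, and Krt20, -1.42), and with HPTE Krt7 rose (0.82) and Krt20 fell (-1.17). Over all probes 11.1%, 19.3% and 19.9% were called higher and 17.0%, 30.2% and 28.2% lower with E2, BPA and HPTE. The Krt7 call with E2 was lost without scaling (0.34, adjusted p = 0.154), and that of Krt19 with E2 without vehicle replicate 1 (0.19) or E2 2 h replicate 1 (0.27) or 3 (0.25). The Krt19 call with E2 was also lost with normexp or quantile normalization, without scaling (0.07), without the filter on dim probes, with slide as a block and with only the compared groups. With BPA the Krt18 call was lost with only the compared groups and that of Krt19 without scaling (-0.37). The median change of the list was 0.31, -0.36 and -0.14, against -0.06, -0.10 and -0.09 over all probes. At 24 hr with E2 Krt7 (2.85), Krt8 (1.81) and Krt19 (1.99) rose and Krt20 fell (-1.78). Over all probes 26.3% were called higher and 37.6% lower with E2 at 24 hr, and 5.09% and 8.03% with BPA. With BPA Krt8 (0.60) and Krt19 (0.35) rose, both lost without vehicle replicate 1 (0.53 and 0.24) and the latter also without BPA 24 h replicate 1 (0.32) or 3 (0.35), and both also without scaling (0.49 and 0.24) and with slide as a block (0.60 and 0.30). Krt19 was also lost here with normexp or quantile normalization, without the filter on dim probes and with only the compared groups. With HPTE 4 of 6 rose (Krt7, 0.62, Krt8, 0.99, Krt18, 0.69, and Krt19, 0.66), where 14.9% of all probes were called higher.

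Of 6 epidermal markers tested, 0 were called higher at 2 hr by limma, where 11.1% (E2), 19.3% (BPA) and 19.9% (HPTE) of all probes were. With E2 at 24 hr, when krt86 and Krt2-25 were tested, 2 of 6 rose, where 26.3% of all probes did. These were Ivl, at least 2.41-fold (adjusted p = 5.21e-06), and Lor, by 0.82 (adjusted p = 0.00155). The counts do not set the list apart. Ivl was bright enough to test only through these E2 arrays, so its test leans towards a rise. The part of epidermal transcripts in the keratin values was not tested. Flg, Dsg1a and Dsc1 were above background on 0 of 20 arrays and Ivl on the 2 E2 arrays at 24 hr only. The summed intensity of the 9 markers was 2879 to 4371 on 2-hr arrays against 4853 to 5514 on vehicle arrays and 5020 to 5804 with E2 at 24 hr. Lor, a cornified envelope gene, fell with BPA (-0.58) and HPTE (-0.44) at 2 hr. Krt10 alone read 3787 to 4491 on vehicle arrays and 2198 to 3593 on 2-hr arrays, so the sum mostly follows Krt10. The sum is also not scaled between arrays, and it does not measure epidermal content.

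**Figure D3:**
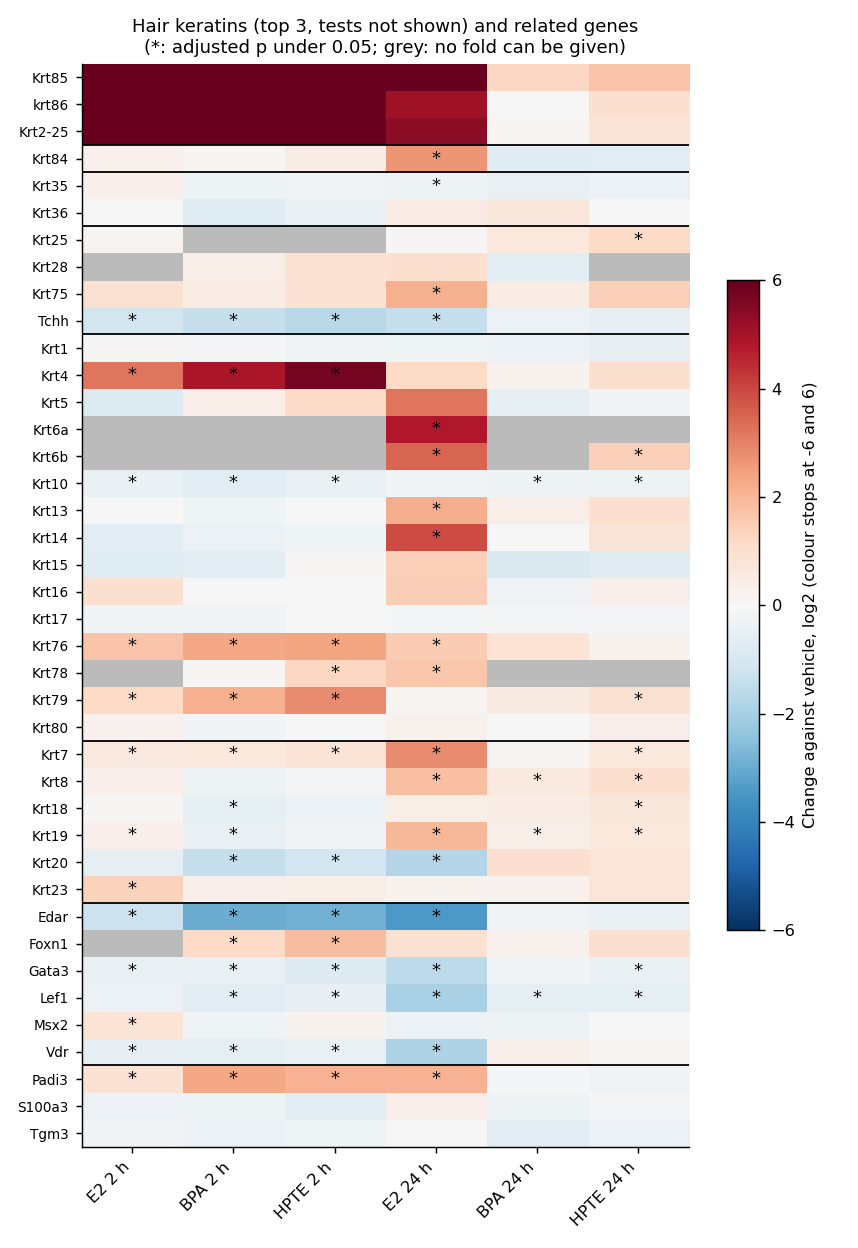
Changes against vehicle (log2, colour limited to -6 and 6) of the hair keratins in the top 3 rows and of the tested genes of each list below, in the order other type II hair keratins, type I hair keratins, inner root sheath, stratified keratins, simple keratins, regulators and other shaft genes. Groups with no array well above background enter at their limit, grey marks cells without a fold, and asterisks mark an adjusted p under 0.05; Krt4 is the strongest colour at 2 hr below the top rows.

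Along the keratin cluster, 26 probes of 22 genes spanned 684 kb, and 22 probes were bright enough to test. Positions were looked up after the values were known. Besides the 3 hair keratins, 5 of the other 19 tested probes were called higher with E2 at 2 hr, 5 with BPA and 6 with HPTE, and 1 was called lower in each. Over all probes the shares were 11.1%, 19.3% and 19.9% higher and 17.0%, 30.2% and 28.2% lower. The called increases lay at Krt7 (2 probes, at -93.3 and -88.8 kb from the Krt85 probe) and at Krt76, Krt4 and Krt79 (368 to 413 kb on the other side), plus Krt78 with HPTE. Krt88, between the krt86 and Krt2-25 probes, fell with E2 (-1.68, adjusted p = 0.0157) and HPTE (-1.45, adjusted p = 0.0202) and did not pass with BPA (-1.12, adjusted p = 0.0627), and it is named although it lies outside the lists. At 24 hr Krt88 was also called lower with E2 (-1.57, adjusted p = 0.0178), BPA (-1.92, adjusted p = 0.0157) and HPTE (-1.79, adjusted p = 0.00947), so its fall was not particular to 2 hr.

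**Figure D4:**
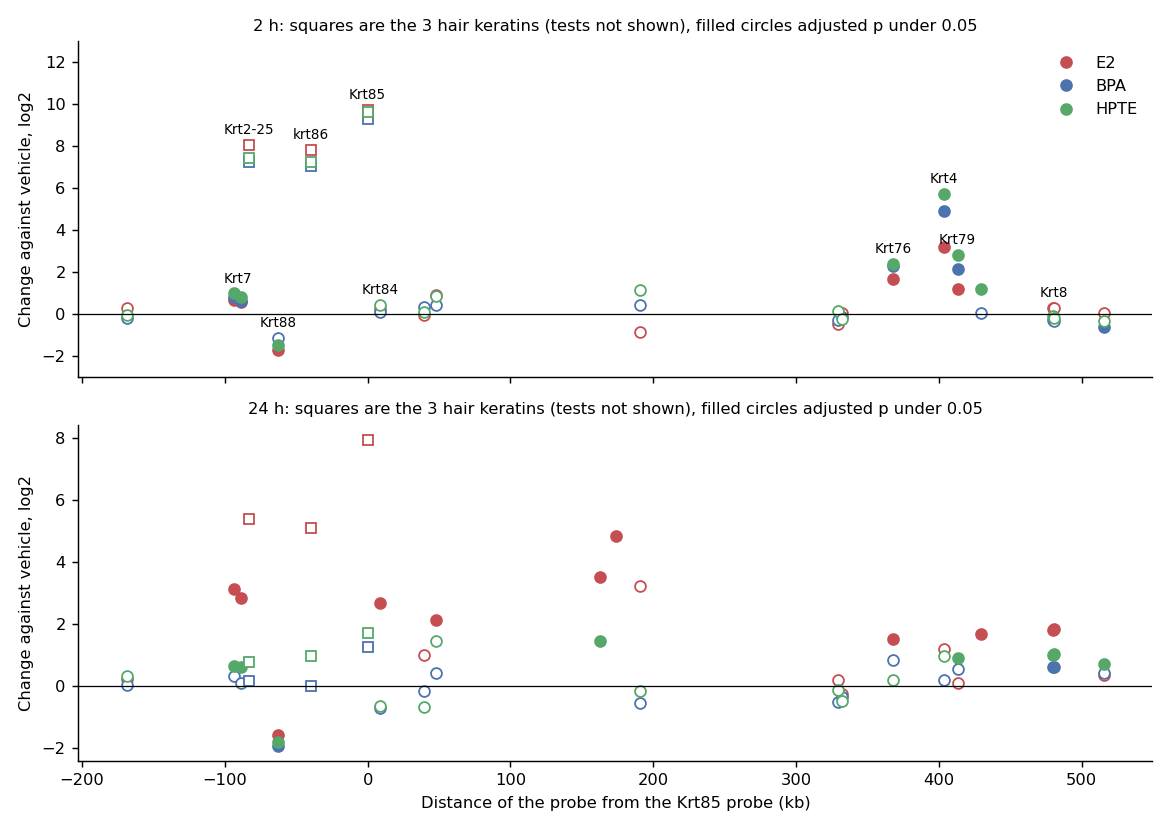
Change against vehicle (log2) of each tested keratin probe of the chromosome 15 cluster by its distance (kb) from the Krt85 probe, at 2 hr above and 24 hr below. Squares are the hair keratins, with Krt85 at its bound, and filled circles passed an adjusted p of 0.05; at 2 hr the hair keratins stand at 7.06 or more while the other probes between Krt80 and Krt5 lie at 1.15 or less.

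Over all 20 arrays, krt86 and Krt2-25 varied together (Pearson r = 0.993, n = 20), as probes that share sequence may, and Krt85 followed each of them with r = 0.971 and 0.970. These values describe 7 groups rather than 20 independent points and carry no p. Of the 32453 other tested probes, 391 had r above 0.9 with the mean of the 3, and 52 above 0.95. The 10 named genes most like them were Ramp3, which modifies calcitonin-family receptors (r = 0.989, rho = 0.923), the spindle checkpoint gene Mad2l1 (0.985, 0.946), the aminotransferase gene Got1 (0.981, 0.923), the DNA repair gene Dclre1b (0.977, 0.803), the mitochondrial cyclophilin gene Ppif (0.976, 0.847), Plet1 (0.976, 0.848), the sphingomyelin synthase gene Sgms2 (0.975, 0.829), Ier3 (0.975, 0.788), the progesterone receptor gene Pgr (0.975, 0.899) and Ctr9, of the PAF1 complex (0.974, 0.955). With Spearman's rho in place of Pearson's r, 3 of the 10 were again among the first 10, and with no scaling 6.

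Ramp3 had the widest range of these. Its median intensity was 4322 on vehicle arrays, 41108, 55037 and 58929 with E2, BPA and HPTE at 2 hr, 22645 with E2 at 24 hr, and 3308 and 4565 with BPA and HPTE at 24 hr. Its mean change was 3.70, 3.50 and 3.68 at 2 hr, 2.41 with E2 at 24 hr and -0.26 and 0.25 with BPA and HPTE. Pgr differed from vehicle by 1.81, 1.6 and 1.40 at 2 hr and by 1.0 with E2 at 24 hr, against 0.03 and 0.10 with BPA and HPTE. All 10 were well above background on every vehicle array, unlike Krt85.

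**Figure D5:**
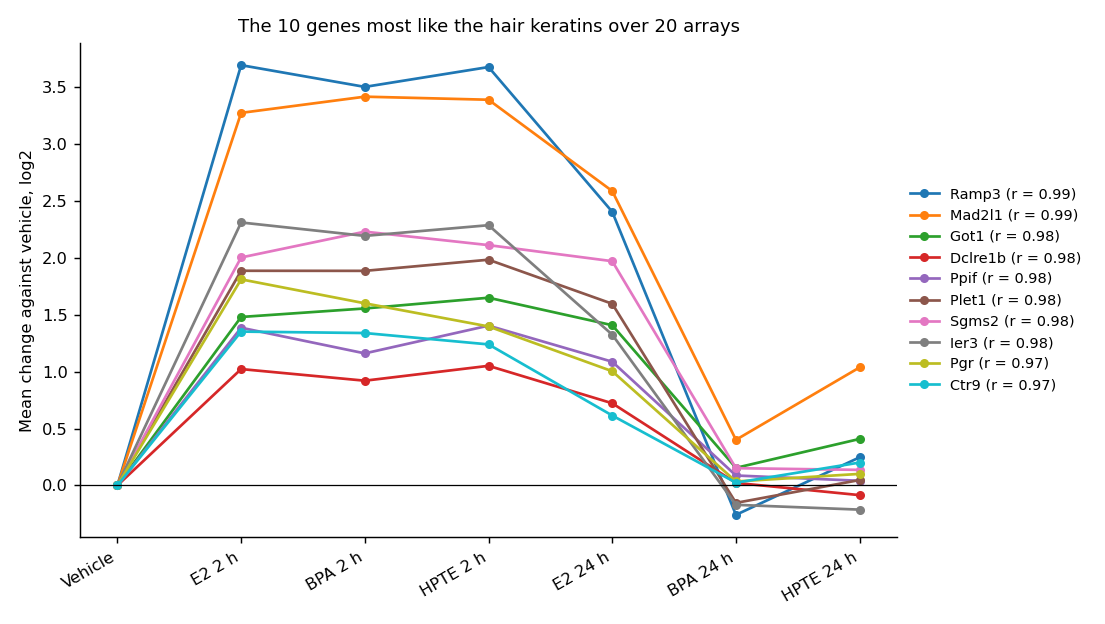
Mean change against vehicle (log2) in each group for the 10 genes whose signal over the 20 arrays was most like that of the hair keratins, with Pearson r in the key. Each gene is high in the 3 groups at 2 hr, from 0.92 to 3.70, from 0.61 to 2.59 with E2 at 24 hr, from -0.26 to 0.40 with BPA at 24 hr and from -0.21 to 1.04 (Mad2l1) with HPTE at 24 hr.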

How the data were processed

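RNA of single uteri was labelled with Cy3 and hybridized to 1-colour Agilent arrays. The authors extracted the deposited intensity values with Agilent Feature Extraction 9.5, and per the file headers the processed intensity is background subtracted and detrended within each array, with surrogate values for dim spots and no scaling between arrays. The deposited flags (type other per the file headers) mark outlying, saturated or clearly detected spots, and the deposited series matrix holds the same intensity (largest relative difference 0). Each array had 45018 spots, 1639 of them controls. Here, each array's 75th percentile was subtracted from its log2 intensity, spots of a probe were averaged without outliers, and a probe was tested when 1 or more groups had it well above background on all their arrays and it was missing on at most 2 arrays (32456 of 41174).

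Groups came from the labels. One mean per group (7 groups) was estimated in limma 3.58.1, run in R 4.3.3 (two-sided, Benjamini-Hochberg over all probes within a contrast, threshold 0.05), after a check on simulated data; tables were made with Python 3.11.15. Where a group had no array well above background, the fold is a bound: the brighter group's mean against, on each dim array, the higher of its lowest signal well above background (9.44 to 20.0) and the probe's own. A p-value beside a bound is that of the fitted difference, which takes the dim signals as read, and the bound itself was not tested. The share of all probes whose arrays did not overlap between groups was not counted, so statements on overlap are descriptive. Related lists used 1 probe per gene (highest mean). Named genes were the 3 members, the genes of the lists and the 10 genes most like the members by Pearson r over 20 arrays, without clone or accession names. The members and lists were chosen with earlier results of these data known. The labels do not say whether the uteri of a group came from separate experiments, so p-values measure the spread between these samples, and the number of arrays limits precision. Symbols were updated through a RefSeq table (GRCm38.p6), to which 22951 probes matched by accession. Alternatives were other normalizations, no filter, slide or replicate number as a block, only the compared groups, within-slide differences, leaving out each array, all probes of a gene and Spearman's rho. The members have 0 saturated and 0 outlying spots.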

Additional observations from a re-analysis of the deposited data

How the results depend on the processing

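All values here are log2 differences, bounds for Krt85 against vehicle, whose calls rest on the fitted differences. Of the hair keratins' values under alternatives, 260 kept direction, call and size, 35 moved, 16 lost and 2 gained a call, and 8 changed sign. Normexp with quantile normalization lowered the 2-hr values to 6.92, 6.57 and 6.80 for Krt85 (E2, BPA, HPTE), 5.93, 5.21 and 5.40 for krt86 and 6.10, 5.34 and 5.48 for Krt2-25, and Krt85 with E2 at 24 hr to 5.10, and ended the calls of Krt85 with BPA (0.48) and HPTE (0.63) and of Krt2-25 with HPTE (0.41) at 24 hr. Quantile normalization gave 10.16 (Krt85) and 8.42 (Krt2-25) with E2 and 9.99, 7.58 and 7.75 (Krt85, krt86, Krt2-25) with HPTE at 2 hr, 8.28 for Krt85 with E2 at 24 hr, and a call for krt86 with HPTE at 24 hr (1.31, adjusted p = 0.0187). Without scaling, krt86 with BPA at 24 hr turned to -0.11 and Krt2-25 with HPTE lost its call (0.67), as it did without the filter on dim probes (0.78, adjusted p = 0.0528). With slide as a block, Krt85 lost its calls with BPA (0.71) and HPTE (1.06) at 24 hr and krt86 with BPA turned to -0.29. With only the compared groups in the fit, Krt85 with BPA lost its call (1.26, adjusted p = 0.0927).

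With the replicate number as a block, Krt2-25 with HPTE at 24 hr lost its call (0.78, adjusted p = 0.0549) and no other call of the hair keratins changed. Deviations of same-numbered arrays correlated with a median r of -0.05 (-0.36 to 0.33, 57 pairs), so the numbers were not taken to pair samples. Same-slide arrays had a median r of 0.11 (-0.14 to 0.51, 25 pairs). Within slides, without a test, slide 1 gave 8.32 for krt86 with E2, 6.4 for Krt2-25 with BPA, 7.59 and 7.05 for krt86 and Krt2-25 with HPTE at 2 hr, and 1.66, 0.71 and 0.65 for Krt85, krt86 and Krt2-25 in HPTE against BPA. Slide 3 gave 10.10 and 7.78 for Krt85 and Krt2-25 with HPTE at 2 hr, slide 5 gave 7.48 and 4.56 for Krt85 and krt86 with E2 and 0.53 for Krt85 with HPTE at 24 hr, and slide 6 gave 2.05 for krt86 in HPTE against BPA at 24 hr.

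Leaving out single arrays gave, at 2 hr with HPTE, 9.48 to 9.86 for Krt85 and 6.96 to 7.56 for krt86, and for Krt85 with E2 at 24 hr 7.78 to 8.16. With BPA at 24 hr it gave 0.56 to 1.62 for Krt85 and -0.31 to 0.29 for krt86, and with HPTE 0.59 to 1.24 for krt86 (called without vehicle replicate 3, adjusted p = 0.0283) and 0.62 to 0.99 for Krt2-25. HPTE against BPA at 2 hr ranged from -0.52 to 0.72 for Krt85, -0.19 to 0.47 for krt86 and -0.20 to 0.42 for Krt2-25. Of the 10 most alike genes, 3 remained with Spearman's rho and 6 without scaling. Over all probes, 142 calls of HPTE against BPA at 2 hr became 0 to 1235, 1325 at 24 hr became 0 to 871 under the alternatives that moved them by over 1.5 times, BPA at 24 hr fell from 4259 to 1588 to 2588 under such alternatives, and HPTE at 24 hr from 11050 to 4863 with slide as a block. Without scaling the median probe stood at -0.29 (E2, 2 hr), -0.12, -0.15 and -0.17 (E2, BPA and HPTE, 24 hr). Of 86 calls of the related genes, 46 held under every alternative and 0 changed sign. The cause of these changes was not tested. Signals near background limit Krt85 on vehicle arrays.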
